A study of Oryza sativa with 6 samples.

Results

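The ribonuclease T2 family was followed in leaves of the glyphosate-tolerant rice CA21. Its members were the gene entries whose deposited description holds the words "ribonuclease T2", which gave 5 of 35018 gene entries, and the same words were found in 6 of 57680 transcripts. Of the 5 genes, LOC_Os09g36680 and LOC_Os09g36700 were chosen by their FPKM in GLY against CK, the contrast described here, so their values are given as a description and without a test. LOC_Os08g33710, LOC_Os01g67180 and LOC_Os07g43670 were taken by description only. The extra transcript belonged to LOC_Os01g67190, whose gene entry carried no description and lay outside the rule.

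Leaf RNA was sequenced from CA21 plants sprayed at the third-leaf stage with glyphosate at 2 mg/ml (GLY, 3 libraries) and from CA21 plants that were not sprayed (CK, 3 libraries). All 6 libraries share the CA21 genotype, a line made by gamma irradiation and EMS mutagenesis of the cultivar Zhejing30 followed by crosses with the glyphosate-sensitive P1003. Leaves were taken once sprayed P1003 plants had died, so each group stands for 1 line at 1 dose and 1 time. The sources give 3 replications per group but not what separated them, and p-values measure the spread between these libraries. In whole leaves, fewer cells of a type and less RNA per cell cannot be told apart.

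Ribonucleases of the T2 family cut single-stranded RNA without a metal cofactor, and plants carry them as proteins that are secreted or kept in the endomembrane system. S-like members act outside self-incompatibility. In Arabidopsis, RNS1 is a secreted enzyme whose transcript is known to increase under phosphate starvation and wounding, while RNS2 resides in the vacuole and endoplasmic reticulum and takes part in the turnover of ribosomal RNA. Such enzymes are known for recycling phosphate and nucleosides from RNA in senescing and stressed leaves.

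The libraries were leaf-like in both groups. The small subunit genes of ribulose bisphosphate carboxylase, which fixes carbon, summed to 4416 to 5360 FPKM (fragments per kilobase of transcript, scaled to the mapped fragments of the library) in GLY and 7974 to 8146 FPKM in CK over 3 entries. The 17 chlorophyll a-b binding entries, the light-harvesting antenna proteins, summed to 24426 to 35198 FPKM in GLY and 40479 to 45749 FPKM in CK. Both leaf marker sums were thus lower in every GLY library, and their part in the results on the family was not tested. Seed storage glutelins summed to at most 1.49 FPKM in GLY and 0.478 FPKM in CK, and prolamins to at most 0.0672 and 0.0145 FPKM. The depth implied by the deposited coverage and FPKM was 3.84 to 4.40 Gb of mapped bases in GLY and 3.43 to 3.80 Gb in CK. The valid bases listed in the paper were several times higher, with more in CK than in GLY. This difference was not resolved here.

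The make-up of the family level differed between the groups. In GLY, the 2 chromosome 9 genes held nearly all of it. In CK, LOC_Os08g33710 had the highest mean (41.6 FPKM), followed by LOC_Os09g36680 (16.5 FPKM) and LOC_Os01g67180 (14.9 FPKM). The summed family FPKM was 1606 ± 101 in GLY and 73.5 ± 21.6 in CK (SD, n = 3 each), a 21.8-fold ratio of means. The chromosome 9 pair held 97.2%, 97.3% and 97.3% of that sum in GLY1, GLY2 and GLY3, against 21.5%, 20.3% and 27.7% in CK1, CK2 and CK3. The other 3 members summed to 43.8 ± 2.67 FPKM in GLY and 56.5 ± 17.3 FPKM in CK (SD, n = 3 each). Their ratio of means was 0.776, so the higher family level in GLY lay in the pair. Of all FPKM in a library, the family took 0.278%, 0.293% and 0.333% in the GLY libraries and 0.0172%, 0.00925% and 0.0119% in the CK libraries.

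**Figure D1:**
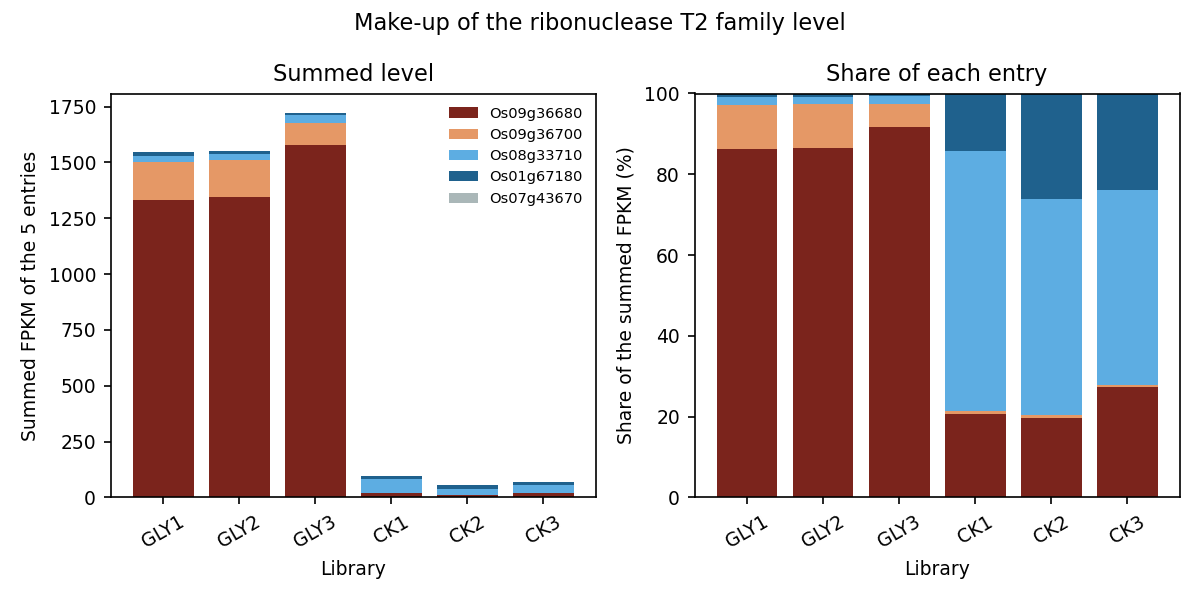
Summed FPKM of the 5 ribonuclease T2 gene entries in each library (left) and the share of each entry in that sum in percent (right), with GLY libraries before CK libraries. Both dark red and orange blocks, the chromosome 9 pair, fill over 97% of the GLY bars and between 20.3% and 27.7% of the CK bars.

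LOC_Os09g36680 was the most abundant member in GLY leaves. The deposited annotation lists ribonuclease T2 activity, RNA binding, a cytoplasmic location and response to stress for it, and neither gene of the pair carried the enzyme number that the other 3 members had. Its gene model lies on chromosome 9 from 21155956 to 21157945 on the minus strand (positions as in the deposited table, which the study ties to a Nipponbare IRGSP build), with 4 exons and a transcript of 1079 bases. It measured 1332, 1343 and 1580.3 FPKM in GLY1, GLY2 and GLY3, against 20.0, 10.6 and 19.1 FPKM in CK1, CK2 and CK3. The lowest GLY library stood far above the highest CK library, and within each group the values lay close together except for the lower CK2. The means were 1419 ± 140.1 FPKM in GLY and 16.5 ± 5.20 FPKM in CK (SD, n = 3 each), an 85.8-fold ratio. On the log2(FPKM + 1) scale the difference was 6.38 (SE 0.25).

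The depth behind these values was high in both groups. LOC_Os09g36680.1, the gene's single sense transcript, had a mean coverage of 5865, 5706 and 6061 reads per base in GLY and 68.4, 40.1 and 70.8 reads per base in CK. Ordered by FPKM within a library, the gene stood at positions 40, 36 and 29 in GLY and at positions 1620, 3048 and 1679 in CK. It alone took 0.240%, 0.253% and 0.305% of all FPKM in the GLY libraries.

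LOC_Os09g36700 lies on the same strand of chromosome 9, from 21165182 to 21167650, with 4 exons and a transcript of 1213 bases. A gap of 7236 bases separates it from LOC_Os09g36680. Its annotation lists ribonuclease T2 activity and RNA binding, without a location or a stress term. It measured 169.9, 166 and 95.6 FPKM in GLY1, GLY2 and GLY3, against 0.772, 0.359 and 0.355 FPKM in CK1, CK2 and CK3. Every GLY library was far above every CK library, and GLY3 was the lowest of its group although it was the highest for LOC_Os09g36680. The group means were 144 ± 41.8 FPKM in GLY and 0.496 ± 0.240 FPKM in CK (SD, n = 3 each), a 290.4-fold ratio.

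The size of the change of LOC_Os09g36700 depended on how its low CK level was treated. The log2 difference was 6.56 (SE 0.26) with 1 FPKM added, 7.94 with 0.1 FPKM added and 8.18 as the plain ratio of means. Its coverage was 748, 706 and 367 reads per base in GLY, but 2.65, 1.36 and 1.32 reads per base in CK. These CK values came from 3209, 1655 and 1599 mapped bases, and they limit the precision of any ratio to them. Across the 6 libraries its position by FPKM was 257, 250 and 394 in GLY and 16692, 19434 and 19493 in CK.

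The pair had been chosen for these differences. With 1 FPKM added, LOC_Os09g36700 and LOC_Os09g36680 ranked first and second for the log2 difference among the 19316 gene entries tested. The added amount limits the log2 difference of a gene without signal in CK. LOC_Os02g09940 was such a gene, with 50.5, 51.7 and 62.1 FPKM in GLY and a log2 difference of 5.79. The rank is therefore stated for that setting only, and ranks with 0.1 FPKM added are not given here. An entry was tested if its mean over the 6 libraries reached 0.5 FPKM. LOC_Os09g36700, with a CK mean of 0.496 FPKM, passed this filter through GLY alone. An entry was called differentially expressed at a log2 difference of at least 1 in either direction and P under 0.05. Of the tested entries, 8.98% were called, 6.58% were called higher in GLY and 8.06% were called with an adjusted p under 0.05 as well. Groups did not overlap in 44.9% of tested entries, with GLY above in 34.3%. The pair lay past these limits by its selection, and nothing is read from that.

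**Figure D2:**
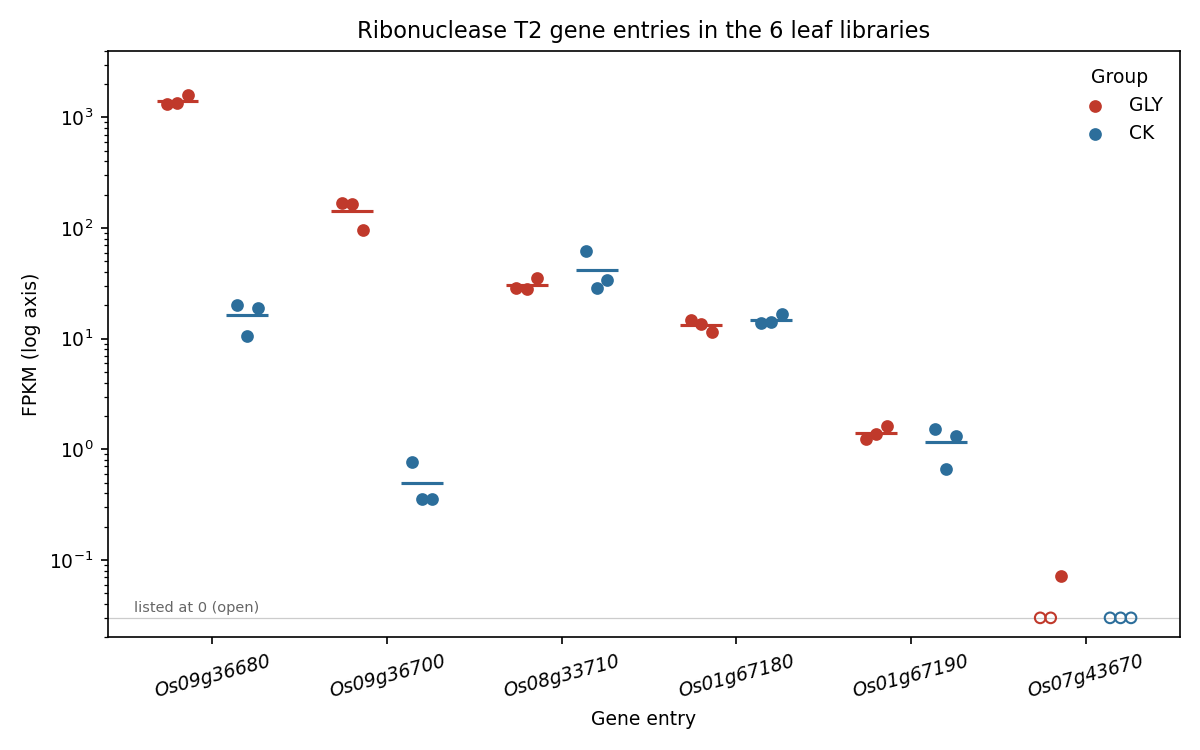
FPKM of the 5 ribonuclease T2 gene entries and of LOC_Os01g67190 in each library on a log axis, with GLY (red) left of CK (blue), lines at the group means and open circles for libraries listed at 0. LOC_Os09g36680 and LOC_Os09g36700 have no overlap between groups, whereas the GLY and CK values of LOC_Os08g33710, LOC_Os01g67180 and LOC_Os01g67190 interleave.

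The balance within the pair differed between the groups. LOC_Os09g36680 exceeded LOC_Os09g36700 by 7.84, 8.09 and 16.5 times in GLY1, GLY2 and GLY3, against 25.9, 29.4 and 53.7 times in CK1, CK2 and CK3. The mean ratio of the FPKM values was 10.8 ± 4.95 in GLY and 36.3 ± 15.2 in CK (SD, n = 3 each). LOC_Os09g36680 was therefore the higher of the pair in all 6 libraries, by a smaller ratio in GLY. This comparison rests on the same values that chose the pair and was not tested. The CK ratios divide by LOC_Os09g36700 values of 0.355 to 0.772 FPKM, whose low coverage limits their precision. How reads that fit both genes were assigned is not stated in the sources used here, and the identity of their sequences was not computed.

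LOC_Os08g33710, annotated to the cell wall and extracellular space, was the most abundant member in CK leaves. It lies on chromosome 8 from 21050472 to 21052852 on the plus strand, with 2 exons and a transcript of 1420 bases. It measured 28.7, 27.8 and 35.1 FPKM in GLY, against 62.1, 28.8 and 34.0 FPKM in CK. Only CK1 stood apart, and the other 5 libraries lay within 27.8 to 35.1 FPKM in both groups. The means were 30.5 ± 3.94 FPKM in GLY and 41.6 ± 17.9 FPKM in CK (SD, n = 3 each). The log2 difference was −0.36 (SE 0.29, 95% interval −1.09 to 0.36), which was not significant (limma, adjusted p = 0.414). Without CK1 the log2 difference was −0.04, and under median-of-ratios scaling, which set the median log2 difference of all tested entries at −0.02 in place of 0.20, it was −0.66, also not called.

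LOC_Os01g67180 carries annotation terms for the vacuole, the endoplasmic reticulum and its bodies, rRNA breakdown and negative regulation of autophagy, terms of the kind known for Arabidopsis RNS2. It lies on chromosome 1 from 38990769 to 38993804 on the minus strand, with 8 exons in a reference transcript of 1446 bases. Its gene level was 14.7, 13.6 and 11.5 FPKM in GLY, against 13.9, 14.0 and 16.7 FPKM in CK. The groups overlapped, with means of 13.3 ± 1.60 FPKM in GLY and 14.9 ± 1.61 FPKM in CK (SD, n = 3 each). The log2 difference was −0.15 (SE 0.13, 95% interval −0.47 to 0.16), and it did not pass the test (limma, adjusted p = 0.420). Under median-of-ratios scaling it was −0.44 with an unadjusted limma P of 0.0180, still short of the fold threshold.

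Of the 2 members outside the pair that could be tested, 0 were called, beside 8.98% of all tested entries. An unadjusted limma P under 0.05 was reached by 0 of these 2 as deposited, beside 38.6% of all tested entries. Nothing is read from the shares of 2 genes. An ordinary linear model without moderated variances called 0 of them as well. The interval of LOC_Os08g33710 reached −1.09, so a decrease past the fold threshold could not be told from none, while that of LOC_Os01g67180 stayed within the threshold on both sides.

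At the transcript level, the pair, LOC_Os08g33710 and LOC_Os07g43670 each had 1 sense transcript, whose FPKM is the gene's own value. Of 32646 transcripts past the same filter, 9.33% were called by the same thresholds, 6.66% higher in GLY, and 4.9% had an adjusted p under 0.05 as well. Apart from the transcripts of the pair, which carry the values that chose it, 0 transcripts of the family were called. An unadjusted limma P under 0.05 was reached by 0 of them, beside 22.5% of all transcripts past the filter. Nothing is read from so few. LOC_Os01g67180 was the member with an assembled isoform besides the reference one. That isoform, MSTRG.3328.1, had 8 exons over 1648 bases and took 21.1%, 14.5% and 35.8% of the gene's mapped bases in GLY, against 46.7%, 19.6% and 41.5% in CK. The groups overlapped in this share. The level of MSTRG.3328.1 differed by −0.61 on the log2 scale (limma, adjusted p = 0.379) and that of LOC_Os01g67180.1 by 0.09 (limma, adjusted p = 0.861).

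LOC_Os01g67190 is the next gene on chromosome 1, on the same strand and 664 bases beyond LOC_Os01g67180, so the family holds a neighbouring pair there too. Its transcript LOC_Os01g67190.1 has 8 exons over 1237 bases. The gene entry was at 1.23, 1.37 and 1.63 FPKM in GLY and at 1.52, 0.658 and 1.31 FPKM in CK. These groups overlapped, and the log2 difference was 0.18 (SE 0.19, 95% interval −0.29 to 0.64; limma, adjusted p = 0.536). The described transcript on its own differed by 0.13 (limma, adjusted p = 0.709). Neither gene of the chromosome 1 pair was called.

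LOC_Os07g43670 was at the edge of detection. It lies on chromosome 7 from 26141469 to 26142922, with 2 exons over 1098 bases, and shares its annotation terms with LOC_Os09g36680. It was listed at 0 in GLY1, GLY2 and all 3 CK libraries and at 0.0712 FPKM in GLY3, from 300 mapped bases. It did not pass the filter, and a difference was not detectable at this depth.

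RNA on the opposite strand was assembled at 3 members. MSTRG.26895.1, a single exon of 1902 bases facing LOC_Os09g36680, was at 2.66, 1.91 and 2.18 FPKM in GLY and at 0.0442, 0.0696 and 0 FPKM in CK. All GLY libraries were above all CK libraries, and the entry passed the filter through GLY alone, so no test is given. Its coverage was 0.200%, 0.142% and 0.138% of the sense coverage in GLY and 0.221%, 0.659% and 0% in CK. Whether the libraries kept strand is not stated in the sources used here, and without strand reads of a gene and its antisense partner cannot be told apart. MSTRG.26898.1, facing LOC_Os09g36700, was seen in GLY1 at 0.411 FPKM and listed at 0 in the other 5 libraries. MSTRG.24902.1, facing LOC_Os08g33710, reached 3.98%, 3.09% and 1.91% of the sense coverage in GLY and 1.05%, 1.96% and 1.06% in CK.

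The difference was next followed along chromosome 9. Within 50 kb of the pair lay 20 other gene entries, of which 8 passed the filter. The antisense entry MSTRG.26895 and LOC_Os09g36690 between the pair passed it through GLY alone and are described without a test. Of the other 6, LOC_Os09g36600 was called higher in GLY and 0 were called lower, and no share is read from so few.

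LOC_Os09g36690 (MSTRG.26896), an expressed protein of no stated function, lies on the plus strand from 21161968 to 21163846. It was at 2.21, 4.06 and 1.66 FPKM in GLY, and at 0, 0.0315 and 0 FPKM in CK. It was thus nearly absent from CK and low in GLY. The log2 difference depended on the pseudocount, at 1.80 with 1 FPKM added and 4.55 with 0.1 FPKM added. LOC_Os09g36600, a nodulin gene from 21110924 to 21114651, measured 5.49, 5.33 and 2.38 FPKM in GLY and 0.811, 0.891 and 0.475 FPKM in CK. It rose by 1.59 on the log2 scale (SE 0.28; limma, adjusted p = 0.0129).

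The genes directly flanking the pair differed in direction. LOC_Os09g36670, a peptidyl-prolyl cis-trans isomerase gene that helps proteins fold, measured 3.24, 2.26 and 1.84 FPKM in GLY, and 0.552, 1.002 and 0.734 FPKM in CK. Its GLY libraries were all higher (limma, adjusted p = 0.0179), with a log2 difference of 0.96 that fell short of the threshold. The gene was called without CK2 (1.05), without GLY3 (1.09) or with 0.1 FPKM added (1.56). It was not called under median-of-ratios scaling (0.79), without GLY1 (0.80) or without CK1 (0.87). On the other side, LOC_Os09g36710, a peptidase T1 family gene from 21171653 to 21174067, was at 15.2, 10.7 and 9.65 FPKM in GLY and at 19.6, 20.7 and 16.7 FPKM in CK. All GLY libraries were lower there, by −0.66 on the log2 scale (limma, adjusted p = 0.0486), again short of the threshold. The difference was −0.94 under median-of-ratios scaling and −0.53 without GLY3, not called in either.

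Farther out, LOC_Os09g36730, a MYB transcription factor gene, and LOC_Os09g36750, an L-ascorbate peroxidase gene, had overlapping groups with log2 differences of −0.09 and −0.17. LOC_Os09g36770, an NTMC2 protein gene, was lower in each GLY library by −0.28 on the log2 scale (limma, adjusted p = 0.114) and was not called. The remaining 12 entries were under the filter.

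**Figure D3:**
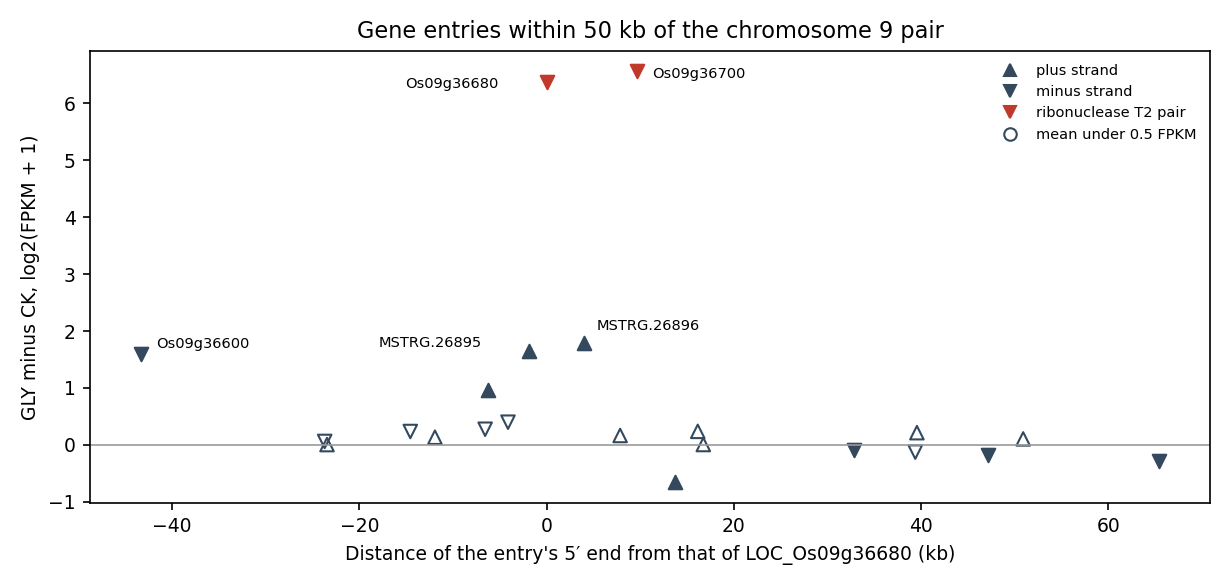
Difference of the group means, GLY minus CK, on the log2(FPKM + 1) scale for the 22 gene entries within 50 kb of the chromosome 9 pair, by distance of their 5′ end from that of LOC_Os09g36680 in kb (triangles point up for the plus strand and down for the minus strand, open ones are under 0.5 FPKM). The pair stands at 6.38 and 6.56, and MSTRG.26896 between them at 1.80, where adding 1 FPKM shrinks the difference of an entry whose plain ratio of means was 251-fold.

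Genes with a profile like that of the pair were sought across all tested entries outside the family. Likeness was the mean absolute difference of log2(FPKM + 1) values over the 6 libraries, each gene centred on its own mean, where a smaller value is more alike. The pair differed from each other by 0.40 on this measure. The same 5 genes came closest to both, which were LOC_Os02g09940 (peroxiredoxin), LOC_Os04g47360 (prolyl oligopeptidase), LOC_Os02g37690 (UDP-glycosyltransferase), LOC_Os09g38020 (core histone) and LOC_Os05g50380 (glucose-1-phosphate adenylyltransferase large subunit). Their distances ran from 0.30 to 0.79 for LOC_Os09g36680 and from 0.50 to 0.88 for LOC_Os09g36700. The closest, LOC_Os02g09940, was at 50.5, 51.7 and 62.1 FPKM in GLY and listed at 0 in all CK libraries. LOC_Os02g37690 and LOC_Os09g38020 were also listed at 0 in all CK libraries, and each of these genes passed the filter through GLY alone. LOC_Os04g47360 measured 174, 169 and 106 FPKM in GLY, against 2.81, 3.21 and 3.18 FPKM in CK, with GLY3 the lowest of its group as for LOC_Os09g36700. With large differences between the groups in all of them, this measure mostly reads the size of that difference.

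Genes that work beside RNA-degrading enzymes were counted in 6 lists taken from words in the descriptions. Of 31 other ribonuclease entries, 23 were tested, 1 was called higher and 1 lower, with a median log2 difference of 0.18. That was 8.7% of them, near the 8.98% of all tested entries, 6.58% higher and 2.4% lower in GLY. The higher one was LOC_Os04g58810, a CAF1 family ribonuclease of the kind that shortens mRNA poly(A) tails, at 3.80, 3.91 and 3.59 FPKM in GLY and 0.459, 0.192 and 0.454 FPKM in CK (log2 difference 1.81), and it passed the filter through GLY alone. The lower one was LOC_Os02g52430, a regulator of ribonuclease, at 2.81, 2.64 and 3.18 FPKM in GLY and 20.97, 4.69 and 18.5 FPKM in CK, with a log2 difference of −1.80 (limma, adjusted p = 0.0561). It was lower in every GLY library but was not called without CK3.

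Phosphate genes were examined because T2 ribonucleases are known for phosphate release. Of 20 phosphate transport and SPX entries, 10 were tested and 2 were called higher, both inorganic phosphate transporters, beside 6.58% of all tested entries called higher. LOC_Os10g30790 was at 36.9, 36.9 and 45.3 FPKM in GLY and at 5.79, 3.64 and 4.99 FPKM in CK (log2 difference 2.82, SE 0.17; limma, adjusted p = 6.6e-04). LOC_Os03g05620, named after its values were seen, was at 21.2, 21.4 and 27.6 FPKM in GLY and at 5.58, 5.82 and 8.15 FPKM in CK (log2 difference 1.71, SE 0.18; limma, adjusted p = 0.00278). The list's median was 0.08. Of 12 acid phosphatase entries, 10 were tested, 0 were called higher and 1 lower, with a median of 0.17, beside 8.98% called among all tested entries. That one, the purple acid phosphatase gene LOC_Os12g44030, was listed at 0 in all GLY libraries and was at 3.94, 4.13 and 3.66 FPKM in CK, through which alone it passed the filter.

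Genes for nucleoside breakdown and salvage, which use the products of RNA decay, gave 1 call among 16 tested of 20 entries, or 6.25%, near the 6.58% of all tested entries called higher, with a median of 0.24. LOC_Os05g33630, a nucleoside hydrolase that splits nucleosides into base and ribose, was at 12.4, 12.0 and 11.5 FPKM in GLY and at 5.91, 4.48 and 4.75 FPKM in CK (log2 difference 1.11, SE 0.12; limma, adjusted p = 0.00285), and it was not called under median-of-ratios scaling. No autophagy entry was called among 9 tested of 10 (median 0.12), nor the 1 tested of 3 S1/P1-type nuclease entries (−0.02). The median over all tested entries was 0.20, so all but 1 of the 6 list medians were below it. Under median-of-ratios scaling the medians were 0.00 for other ribonucleases, −0.03 for acid phosphatases, −0.12 for phosphate genes, 0.06 for salvage, −0.13 for autophagy and −0.25 for the nuclease.

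**Figure D4:**
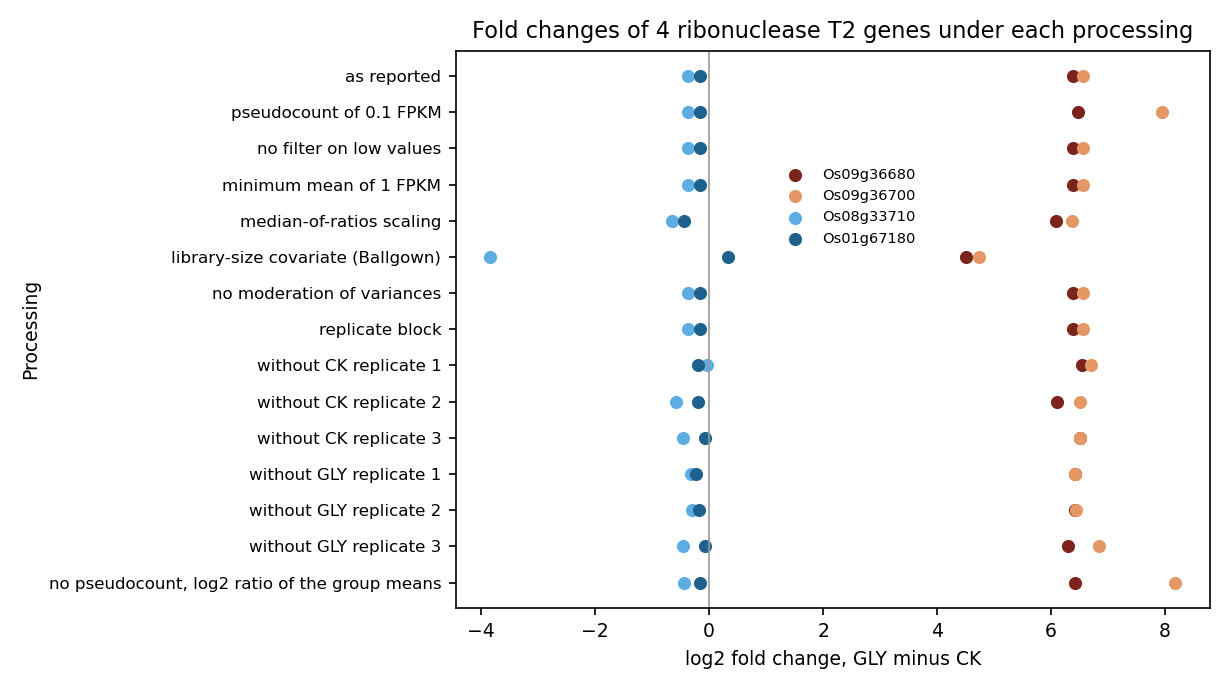
Log2 fold change, GLY minus CK, of the 4 ribonuclease T2 genes that passed the filter (colours) under each way of processing the values (rows). LOC_Os09g36680 lies between 4.50 and 6.54 and LOC_Os09g36700 between 4.73 and 8.18, while LOC_Os01g67180 stays between −0.44 and 0.33 and LOC_Os08g33710 reaches −3.84 with the Ballgown library-size covariate, which correlated with treatment at r = 0.988 over the 6 libraries.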

How the data were processed

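Leaf RNA of 3 GLY and 3 CK libraries was freed of ribosomal RNA and sequenced from both ends. The authors filtered the reads for adaptors and quality, aligned them to Nipponbare rice (TopHat2, Bowtie 2), and used StringTie for assembly and Ballgown for quantification. The deposited values are FPKM of each gene and transcript, scaled by length and library size, in separate columns for the 6 libraries. The deposited transcript table also gives the read coverage per base, not scaled for depth. Coverage over FPKM was constant within a library and was taken as its mapped depth, and coverage times transcript length gave mapped bases.

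The study names a count model for genes, but FPKM are not counts, so limma 3.58.1 in R 4.3.3 (lmFit, eBayes with trend, two-sided) was fitted to log2(FPKM + 1) over all entries with a mean of at least 0.5 FPKM, with Benjamini-Hochberg adjusted p over all of them. A difference on this scale understates the change of low genes. Calls used the study's thresholds, an absolute log2 difference of at least 1 and P under 0.05. The fit was tested on simulated data with normal noise, in which only entries well above the filter were changed. That test does not cover entries near the filter.

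Members and lists were chosen with earlier results of these data known. Named genes were all members, entries within 50 kb of the chromosome 9 pair, the called entry with the largest rise and fall of each list, and the 5 entries nearest in profile to each gene of the pair. Alternatives were a pseudocount of 0.1 FPKM, no filter, a minimum of 1 FPKM, median-of-ratios scaling, the Ballgown library-size covariate, no moderation, a replicate block and leaving out each library. Sequences were not analysed here.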

Additional observations from a re-analysis of the deposited data

How the results depend on the processing

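Members outside the chromosome 9 pair were called under 0 of the alternatives. The pair's calls were fixed by its selection, and their counts describe the settings only. With the Ballgown library-size covariate in an ordinary linear model, 0 family genes were past the thresholds, against 2 without it. The same held at an adjusted p under 0.05. For family transcripts it was 1 (LOC_Os09g36680.1) instead of 2. With the covariate LOC_Os09g36600 was not called (log2 difference 0.83). Of the 6 list entries called as reported, only LOC_Os12g44030 was also among the 6 called with the covariate. The log2 differences were then 4.50 for LOC_Os09g36680 and 4.73 for LOC_Os09g36700, and that of LOC_Os01g67180 turned to 0.33 from −0.15. The covariate correlated with treatment at r = 0.988 over the 6 libraries, so the covariate and the treatment can hardly be told apart. Leaving out 1 library left the family counts at 2 genes and 2 transcripts, with log2 differences of 6.11 to 6.54 for LOC_Os09g36680, 6.42 to 6.83 for LOC_Os09g36700, −0.58 to −0.04 for LOC_Os08g33710 and −0.23 to −0.07 for LOC_Os01g67180. It gave 3 to 4 called entries within 50 kb, 4 to 5 list entries called higher and 1 to 3 called lower. In every such run the calls within 50 kb included MSTRG.26895 and LOC_Os09g36690, which passed the filter through GLY alone. The list calls always included LOC_Os04g58810 (through GLY alone) and LOC_Os12g44030 (through CK alone). The share of all entries called in these runs is not given here, so the counts describe the settings only.

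List entries called higher were 8 with 0.1 FPKM added, against 4 with 1 FPKM added. The share of all entries called higher with 0.1 FPKM added is not given here. Adding less also enlarges the log2 differences of low entries outside the lists, so nothing about the lists is read from this rise. The plain ratio of means, chosen after seeing the data, gave 8.18 for LOC_Os09g36700. Summed from the transcript table, the share of the pair in GLY was 97.2% (97.17% against 97.27%). Same-numbered GLY and CK libraries did not deviate together (r of 0.0035 to 0.0099), so no pairing was seen by this measure. The sources do not say what a shared number stands for. The replicate block called 2 family genes and changed no call given here. Low coverage limits the values of LOC_Os09g36700 in CK, LOC_Os07g43670 and the antisense entries of the pair.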
